A study of Mus musculus with 15 samples.

Results

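The genes described here are 9 transcription factors and transcription partners of the developing heart: Nkx2-5, Tbx20, Gata4, Gata5, Gata6, Hand1, Mef2c, Myocd and Smarcd3. They were chosen by name as a list of cardiac regulators, and all 9 were found among the 30534 gene symbols counted over the 11 transcript libraries. Each library was a frozen mouse embryo section, taken on embryonic day 10 (E10), 11 (E11) or 12 (E12) and profiled with deterministic barcoding. Here microfluidic channels deliver a first barcode set along one axis of the tissue and another set across it, and every intersection makes a pixel that may cover several cells. E10 had 3 libraries at a pixel width of 50 µm, 1 at 25 µm and 2 at 10 µm. E11 had 2 libraries at 25 µm and 2 at 10 µm, and E12 had 1 library at 50 µm. The labels give no strain, treatment or genotype, do not say which embryo or body region a section came from, and name the tissue only as embryo in every group.

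The heart is built by a small network of transcription factors that bind one another's genes and the genes of the contractile apparatus. NKX2-5, a homeodomain protein, TBX20, a T-box protein, and the zinc finger proteins GATA4, GATA5 and GATA6 act together on cardiac promoters, while HAND1, a basic helix-loop-helix protein, is best known from the outer curvature of the left ventricle. MEF2C binds muscle genes in heart, skeletal muscle and vessels, myocardin (Myocd) is a coactivator of serum response factor in heart and smooth muscle, and BAF60C (Smarcd3) is the subunit that links the BAF chromatin remodelling complex to these factors.

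Promoter windows of 250 bases before to 50 bases after the start were taken from RefSeq (GRCm38.p6) for 5 of the 9 genes. Gata4, Gata6, Hand1 and Myocd were not in that table. The windows of Nkx2-5 and Tbx20, the genes that differed most between heart and other tissue, and of Smarcd3, the gene that differed least, are shown 5′ to 3′ on the minus strand. Capitals mark matches to any motif searched. The positions are chr17:26841516-26841815 for Nkx2-5, chr9:24774254-24774553 for Tbx20 and chr5:24601953-24602252 for Smarcd3.
Nkx2-5: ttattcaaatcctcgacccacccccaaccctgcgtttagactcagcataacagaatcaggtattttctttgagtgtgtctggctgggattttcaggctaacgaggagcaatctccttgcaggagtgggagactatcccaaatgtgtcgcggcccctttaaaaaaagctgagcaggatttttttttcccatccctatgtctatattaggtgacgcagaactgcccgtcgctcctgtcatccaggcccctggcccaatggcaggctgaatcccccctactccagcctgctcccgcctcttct
Tbx20: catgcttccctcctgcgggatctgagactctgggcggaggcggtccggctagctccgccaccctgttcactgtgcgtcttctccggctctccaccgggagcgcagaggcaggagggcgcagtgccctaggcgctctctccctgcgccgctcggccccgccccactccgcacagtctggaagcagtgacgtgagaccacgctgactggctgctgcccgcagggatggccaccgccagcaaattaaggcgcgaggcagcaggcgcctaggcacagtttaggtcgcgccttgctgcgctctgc
Smarcd3: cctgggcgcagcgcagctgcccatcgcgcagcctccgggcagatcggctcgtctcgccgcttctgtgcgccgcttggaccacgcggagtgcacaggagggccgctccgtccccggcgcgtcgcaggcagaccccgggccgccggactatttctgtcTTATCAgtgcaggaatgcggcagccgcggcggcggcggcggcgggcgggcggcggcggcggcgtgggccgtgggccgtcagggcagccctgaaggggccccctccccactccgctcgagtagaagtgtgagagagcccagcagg
The motifs were searched on both strands. For GATA factors they were AGATAA or AGATAG or TGATAA or TGATAG, which 29.8% of 32851 promoter windows held. The NKX2 motif TNAAGTG was held by 11.5% of windows, the T-box motif GGTGTGA by 3.98%, and the MEF2 motif (CTA, then any 4 bases, then TAG) by 3.69%. The single match among the 3 windows was a GATA motif in Smarcd3, found on the opposite strand as TTATCA and beginning at position -94 from the start. The windows of Gata5 and of 3 Mef2c starts held no match. The Tbx20 and Smarcd3 windows were rich in G and C (68.3% and 74.7%), whereas that of Nkx2-5 had 51.7%, near the median of 52.7% over all windows.

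Heart pixels were tissue pixels in which the cardiac myosin genes Myh6, Myh7 and Myl7 together made up at least 20 of every 10000 counts, with at least 3 counts and at least 2 of the 3 genes present. Tissue pixels had at least 0.1 of the 95th percentile of the pixel totals of their library, and summed to between 1563489 and 11998765 counts a library. There were 8 libraries with at least 20 heart pixels, which held 1159 heart pixels (40 to 315 a library) and 11121 other tissue pixels. The 3 chosen genes together reached 3270 to 23139 counts per 1000000 counts of the same pixels (CPM) in heart pixels. In other tissue they had 76.6 to 438 CPM. These values chose the pixels and are not read as a result. The E10 10 µm replicate 1 library stood apart: its 315 heart pixels had a median of 29.2 heart gene counts per 10000, against 50.8 to 229 in the other 7 libraries, and 92 of them lay between 20 and 25. In that library another 132 pixels lay just outside, between 15 and 20. E10 50 µm replicate 1 had 19 heart pixels and was left out of the test, E11 10 µm replicate 1 had 1, and E10 10 µm replicate 2 had none. A gene with 3 counts would stand at 0.25 to 1.92 CPM in a whole section, but at 1.48 to 93.4 CPM in the heart pixels of the 8 libraries, the last in E10 25 µm, so that zeros in that library say little.

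Counts were summed over heart pixels and over other tissue pixels of each of the 8 libraries and compared with edgeR's quasi-likelihood test, with the library as a block and Benjamini-Hochberg adjustment over 11493 genes. Of the 9 factors, 6 were higher in heart pixels at an adjusted p under 0.05, 2 did not pass (Gata5 and Gata6), and Hand1 had too few counts to be tested. Over all genes tested, 7.68% were called higher and 5.11% lower (883 and 587 genes). The 3 genes that chose the pixels are among those called higher, which their choice fixed in advance. The split became 760 higher and 1027 lower with library totals alone as scaling, with the same count of 6 factors. Without E10 10 µm replicate 1, 5 factors were called. The median log2 fold change was 2.49 over the 8 factors tested and -0.08 over all genes tested. Fewer cells of a type and less RNA per cell cannot be told apart in pixel sums.

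Nkx2-5 gave the largest difference of the 8 factors tested. Its level in heart pixels ran from 16.8 to 132 CPM with a median of 78.8, and in other tissue from 0.288 to 4.71 CPM with a median of 1.71. It was higher in heart pixels in 8 of 8 libraries, and the ranges did not overlap. The log2 fold change was 5.14 ± 0.70 (SE), a 35.3-fold difference (edgeR adjusted p = 0.00186, n = 8 libraries), and it was 5.90 without E10 10 µm replicate 1, a fold over 1.5 times as large. In heart pixels the lowest value, 16.8 CPM, was that of the E10 10 µm library with the diffuse heart signal, which also had the highest value outside them, 4.71 CPM. Between 42.0% and 85.2% (median 74.8%) of all Nkx2-5 counts of a section lay in heart pixels, which made up 2.60% to 14.8% of the tissue pixels.

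Tbx20, which keeps the embryonic myocardium from taking on other fates and is also active in endocardial cells, followed. Heart pixels ranged from 19.8 to 338 CPM (median 111) and other tissue from 4.21 to 24.2 CPM (median 7.99). Heart pixels were higher in 8 of 8 libraries, although the lowest heart value fell within the range of other tissue. Its log2 fold change was 3.84 ± 0.47 (SE), 14.4-fold (edgeR adjusted p = 0.0012). The 3 highest heart values were 338 and 212 CPM in E10 50 µm replicates 3 and 2 and 198 CPM in E12, all at a pixel width of 50 µm. E10 50 µm replicate 1, outside the test, had 298 CPM in its 19 heart pixels and 7.67 CPM elsewhere.

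Of the 3 GATA factors, Gata4 alone was called higher. Gata4 in heart pixels was 37.6 and 54.9 CPM in E10 50 µm replicates 2 and 3, 0 in E10 25 µm and 10.4 in E10 10 µm replicate 1. It was 59.7 and 28.6 CPM in the E11 25 µm libraries, 58.4 in E11 10 µm replicate 2 and 38.3 in E12. Other tissue ranged from 0.96 to 57.5 CPM (median 5.81), so that the groups overlapped, and heart pixels were higher in 7 of 8 libraries. The log2 fold change was 2.55 ± 0.63 (SE; edgeR adjusted p = 0.0321). This call depended on single libraries: the adjusted p was between 0.0566 and 0.0947 without the second E10 50 µm library, the E10 10 µm library, either E11 25 µm library or E12.

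Gata6, which patterns heart, gut and vessel wall, was higher in heart pixels in 8 of 8 libraries, with 27.7 to 249 CPM (median 96.2) against 3.17 to 105 CPM (median 14.9) in other tissue. The ranges overlapped through E11 10 µm replicate 2, in which other tissue reached 105 CPM beside 123 CPM in heart pixels. The log2 fold change was 2.43 ± 0.67 (SE), and it did not pass (edgeR adjusted p = 0.0562). It passed in 8 of 20 alternatives, among them without E11 10 µm replicate 2 (adjusted p = 0.0393) and with DESeq2 (0.000136), and the adjusted p ran from 0.000136 to 0.274 over the 20.

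Gata5, a factor of endocardial and epicardial cells, had 0 to 73.2 CPM (median 19.1) in heart pixels and 0.653 to 29.2 CPM (median 5.08) in other tissue. It was higher in heart pixels in 6 of 8 libraries, and the ranges overlapped. The log2 fold change of 1.92 ± 0.63 (SE) did not pass (edgeR adjusted p = 0.0831). It was 1.32 without E10 50 µm replicate 3, whose heart pixels held the 73.2 CPM, and then passed (adjusted p = 0.0153). It also passed without E11 10 µm replicate 2 (adjusted p = 0.00889).

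Hand1 was the scarcest of the 9, with 101 counts in the tissue pixels of all 11 libraries. Its 24 counts in heart pixels of the 8 libraries gave 0 to 23.8 CPM (median 3.91), against 71 counts and 0 to 3.63 CPM (median 1.17) in other tissue. The 12 counts of E10 50 µm replicate 2 made the 23.8 CPM, and no other library had more than 4 counts in heart pixels. Heart pixels were higher in 6 libraries, lower in E12, and without a count in either part in E10 25 µm.

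Mef2c was higher in heart pixels in 7 of 8 libraries, at 91.5 to 249 CPM (median 148) against 26.8 to 160 CPM (median 47.1) in other tissue. The ranges overlapped through E12, where heart pixels had 141 CPM and other tissue 160 CPM. Heart pixels exceeded other tissue by a log2 fold change of 1.52 ± 0.21 (SE), 2.87-fold (edgeR adjusted p = 0.000103). Only 18.3% (median over 8 libraries) of a section's Mef2c counts lay in heart pixels, and in E12 2.12% did.

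Myocd ranged from 34.1 to 93.4 CPM (median 68.1) in heart pixels and from 1.90 to 25.8 CPM (median 5.32) in other tissue. The ranges did not overlap, and heart pixels were higher in 8 of 8 libraries. This gave a log2 fold change of 3.14 ± 0.61 (SE), 8.80-fold (edgeR adjusted p = 0.0122), and it was 3.76 without E10 10 µm replicate 1, a fold over 1.5 times as large. The 2 highest levels outside heart pixels were 25.8 CPM in E10 10 µm replicate 1 and 23.8 CPM in E12, while the other 6 libraries had at most 6.53 CPM.

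Smarcd3 was counted in every section, and its difference was the smallest of the 6 called. Heart pixels held 51.5 to 264 CPM (median 121) and other tissue 33.6 to 97.9 CPM (median 58.3), with overlapping ranges and higher heart values in 8 of 8 libraries. In E10 10 µm replicate 1 the pair was 60.8 and 60.4 CPM. Its log2 fold change was 1.15 ± 0.22 (SE), 2.21-fold (edgeR adjusted p = 0.00131). A median of 12.1% of its counts lay in heart pixels.

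**Figure D1:**
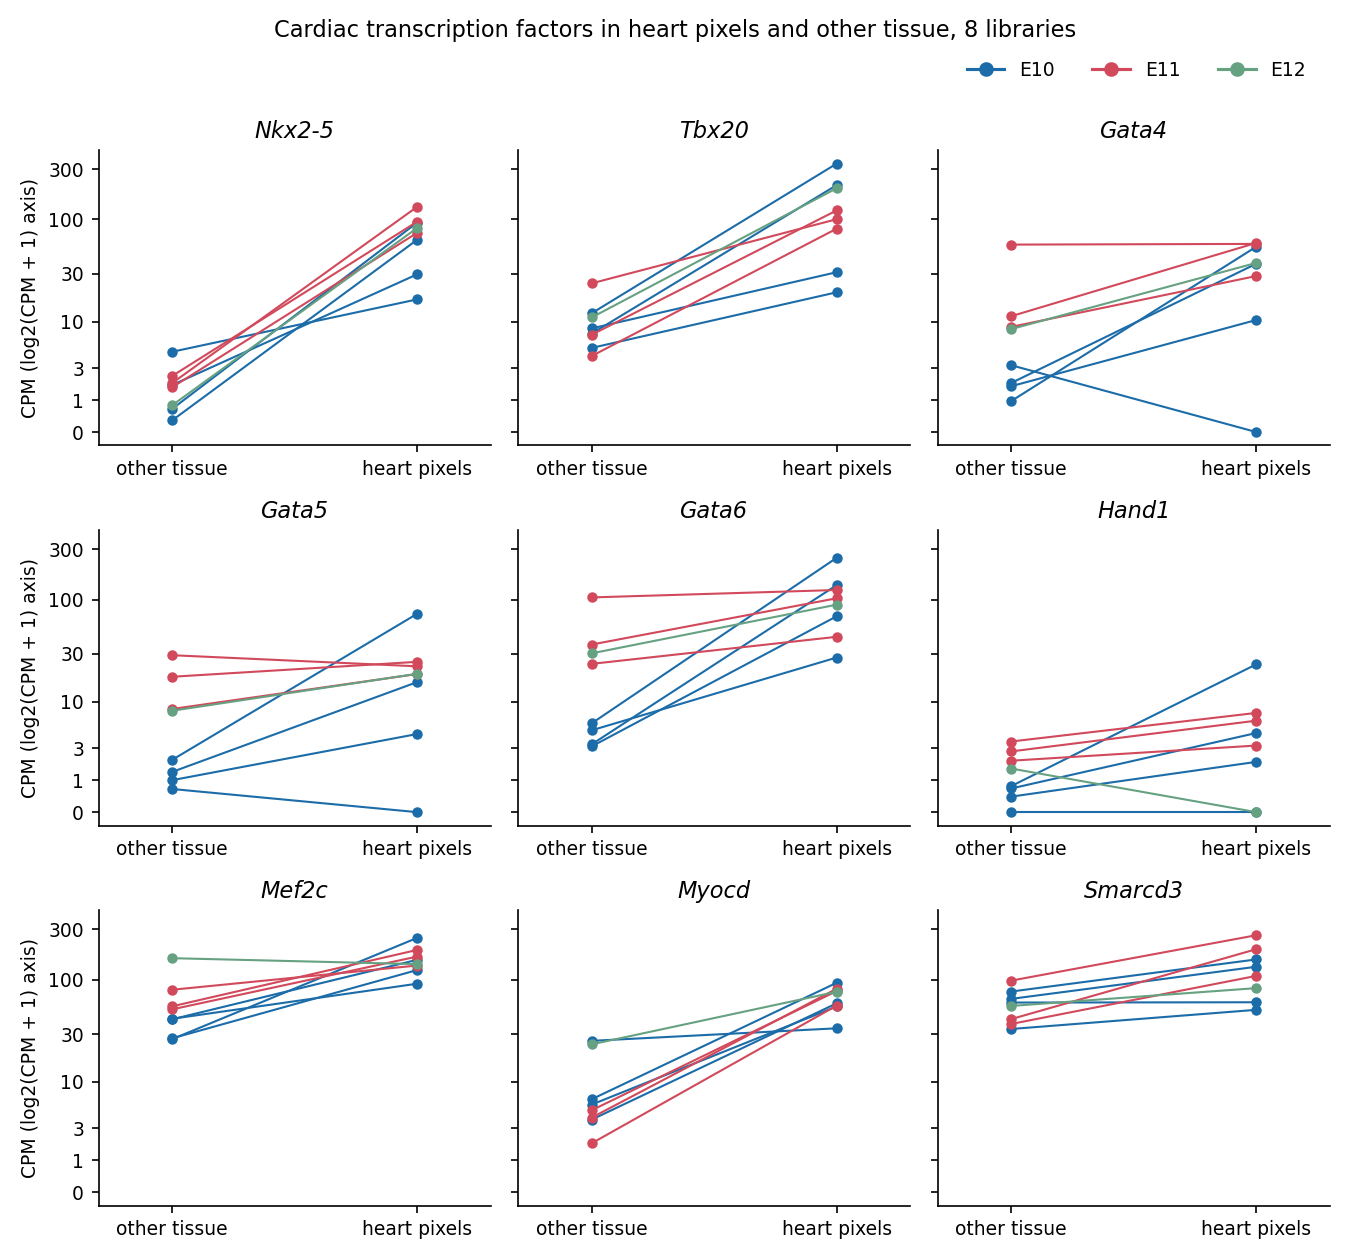
Level of each gene (CPM, on a log2(CPM + 1) axis) in other tissue pixels and heart pixels of the 8 libraries; each line joins the values of 1 library and is coloured by stage. The lines of Nkx2-5, Tbx20, Myocd, Gata6 and Smarcd3 rise in 8 of 8 libraries, while 1 or 2 lines of Gata4, Gata5, Hand1 and Mef2c fall or stay level.

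Genes of other heart cell types were also higher in heart pixels, where 7.68% of all genes tested were called higher and 5.11% lower. Of the endothelial markers tested, 6 of 7 were called higher, led by Tie1, Emcn, Cdh5 and Pecam1, and the 7 listed summed to 187 to 600 CPM in heart pixels against 153 to 322 CPM in other tissue. Of the endocardial markers, 3 of 4 were called (Nfatc1, Npr3 and Plvap; list sum 156 to 420 against 132 to 440 CPM), and of the epicardial markers tested 3 of 5 (Upk3b, Tcf21 and Tbx18; list sum 71.7 to 268 against 14.4 to 223 CPM). In E10 25 µm, 3 of 7 endothelial and 2 of 4 endocardial markers had a count in heart pixels. Their part in the levels of Tbx20, Gata4, Gata5, Gata6 and Mef2c was not tested. Red cell markers did not pass in either direction (0 of 9), and 6 of 7 neuron, 5 of 7 neural progenitor and 4 of 5 liver markers tested were lower. The median pixel total was lower in heart pixels than in other tissue in 7 of the 8 libraries, the exception being E10 10 µm replicate 1; its part was not tested.

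The heart enrichment of 5 factors differed between E11 (3 libraries) and E10 (4 libraries). An interaction term in edgeR's quasi-likelihood fit over 13091 genes called Gata4, Gata5 and Gata6 less enriched and Myocd and Smarcd3 more enriched at E11. Over all genes tested, 0.611% were called lower and 1.24% higher. The p-values of this fit rest largely on a spread estimated over all genes, not on the 7 libraries of 1 gene alone. The E10 libraries had widths of 10, 25 and 50 µm and the E11 libraries 10 and 25 µm, so that stage, width and section position cannot be told apart.

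For the GATA factors, the levels outside heart pixels did not overlap between the E10 and E11 libraries of this test. How many of all genes separate these libraries in the same way was not counted, so the separation is a description. It did not extend to E11 10 µm replicate 1, the section with 1 heart pixel that the test left out. Other tissue of that section held 1.56 CPM of Gata4, 1.95 CPM of Gata5 and 1.56 CPM of Gata6, within or below the E10 values. Gata6 in other tissue was 3.17, 3.36, 5.88 and 4.91 CPM in the 4 E10 libraries and 24.0, 37.0 and 105 CPM in the 3 E11 libraries tested. In heart pixels it was 69.3, 137, 249 and 27.7 CPM at E10 and 44.0, 103 and 123 CPM at E11, which overlapped. The difference of the log2 fold changes was -3.05 ± 0.38 (SE; edgeR adjusted p = 4.93e-12), and it did not pass without the E10 25 µm library (adjusted p = 0.284).

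Gata4 in other tissue was 0.96 to 3.27 CPM at E10 and 8.81, 11.4 and 57.5 CPM in the 3 E11 libraries tested. Its difference was -2.48 ± 0.54 (SE; edgeR adjusted p = 0.000832), lost with DESeq2 (adjusted p = 0.268) and without E10 50 µm replicate 3 (0.0537), E10 25 µm (0.194) or E11 10 µm replicate 2 (0.165). Gata5 in other tissue was 0.653 to 2.11 CPM at E10 and 8.39, 17.9 and 29.2 CPM in the same E11 libraries. Its difference was -3.12 ± 0.64 (SE; edgeR adjusted p = 0.000263), lost without E10 50 µm replicate 3 (adjusted p = 0.11). In E12 other tissue held 8.36 CPM of Gata4, 8.04 of Gata5 and 30.4 of Gata6, near the lower E11 values.

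Myocd and Smarcd3 moved the other way. Myocd in heart pixels was 34.1 to 93.4 CPM at E10 and 56.6 to 81.9 CPM at E11, while other tissue held 3.84, 5.71, 6.53 and 25.8 CPM at E10 and 1.90, 4.05 and 4.93 CPM at E11. The difference of 2.26 ± 0.51 (SE; edgeR adjusted p = 0.00152) fell to 0.94 (adjusted p = 0.76) without E10 10 µm replicate 1, the library with 25.8 CPM outside its heart pixels. It also did not pass with RLE factors (adjusted p = 0.282) or DESeq2 (0.567), or without E10 25 µm (0.533) or E11 25 µm replicate 2 (0.0731). Smarcd3 in heart pixels was 51.5, 133, 156 and 60.8 CPM at E10 and 264, 109 and 195 CPM at E11, which overlapped. Its difference was 1.35 ± 0.30 (SE; edgeR adjusted p = 0.00148), lost without E10 10 µm replicate 1 (adjusted p = 0.154).

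The other 4 factors did not pass. The difference for Nkx2-5 was 1.84 (95% interval 0.55 to 3.12, edgeR adjusted p = 0.156) and passed without E10 50 µm replicate 3 (2.76, adjusted p = 0.00125), but was 0.18 (adjusted p = 0.995) without E10 10 µm replicate 1. That for Tbx20 was -0.32 (-3.04 to 2.41), for Mef2c -0.18 (-0.76 to 0.41) and for Hand1 -2.46 (-4.54 to -0.37), the last from 17 heart counts at E10 and 7 at E11.

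**Figure D2:**
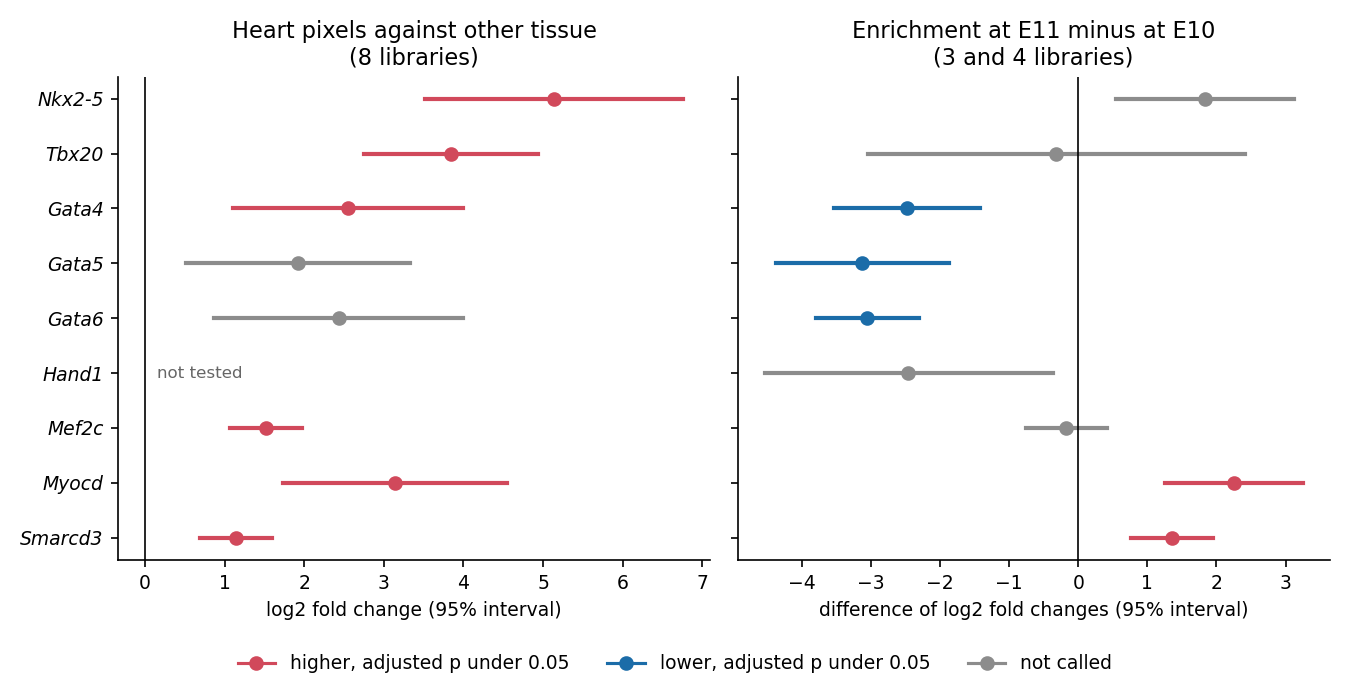
Left, log2 fold change of heart pixels against other tissue (8 libraries); right, the difference of that log2 fold change between E11 (3 libraries) and E10 (4 libraries); points are edgeR estimates, bars their 95% intervals without adjustment, and colour marks an adjusted p under 0.05. Nkx2-5 lies farthest right in the left panel at 5.14, and the 3 GATA factors lie between -3.12 and -2.48 in the right panel.

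The fall of each factor with distance from the heart was read in grid steps, where 1 step is the pixel next to a heart pixel. Pixels 1 and 2 steps away came from 7 libraries and the other classes from 8. The median level of Nkx2-5 went from 78.8 CPM in heart pixels to 7.05 CPM 1 step away and 0 at 2 steps, and was 1.28 CPM at 9 or more. Tbx20 went from 111 to 27.2 and 5.41 CPM, and Myocd from 68.1 to 29.1 and 13.5 CPM over the same steps, with 6.18 and 3.54 CPM at 9 or more. The medians of these 3 genes thus fell mostly within the first 2 steps, but this did not hold in each library. Myocd in E10 10 µm replicate 1 was 34.1, 45.8, 31.8 and 43.6 CPM at 0, 1, 2 and 3 to 4 steps. In E12 Myocd was 30.1 CPM at 1 step and 33.7 CPM at 3 to 4. Tbx20 in E11 10 µm replicate 2 was 3.93 CPM at 2 steps and 35.7 CPM at 9 or more. A step is 10, 25 or 50 µm by library, and a pixel next to the heart can hold heart cells, so these are descriptions without a test.

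The GATA factors and Mef2c fell more slowly or unevenly. Median Gata4 was 38.0 CPM in heart pixels, 12.1 CPM at 1 step, 3.96 CPM at 2 steps, 9.39 CPM at 3 to 4 steps and 2.62 CPM at 9 or more. Gata6 was 96.2, 31.2, 27.2, 17.0 and 6.77 CPM over the same classes. These medians join unlike libraries. From heart pixels to 3 to 4 steps, Gata6 was 69.3, 23.2, 27.2 and 5.39 CPM in E10 50 µm replicate 2. It was 44.0, 31.2, 16.2 and 24.5 CPM in E11 25 µm replicate 1, but 123.3, 114.2, 212.2 and 113.5 CPM in E11 10 µm replicate 2. Gata4 in the latter was 58.4, 81.6, 82.5 and 66.2 CPM. Gata5 was 19.1 CPM in heart pixels, 18.1 CPM at 1 step and 29.8 CPM at 2 steps, on 61, 39 and 43 counts, before it fell to 7.03 CPM at 3 to 4. The median at 2 steps joins unlike stages. There Gata5 was 0 to 1.25 CPM in the E10 libraries and 29.8 to 43.5 CPM in those of E11 and E12. Mef2c went from 148 through 83.1, 67.9 and 55.8 to 38.0 CPM at 9 or more. Smarcd3 went from 121 to 65.3 CPM at 1 step and stayed between 48.4 and 64.1 CPM beyond 2 steps. The 3 chosen heart genes, for scale, fell from medians of 3260 to 4856 CPM to 127 to 355 CPM at 1 step.

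**Figure D3:**
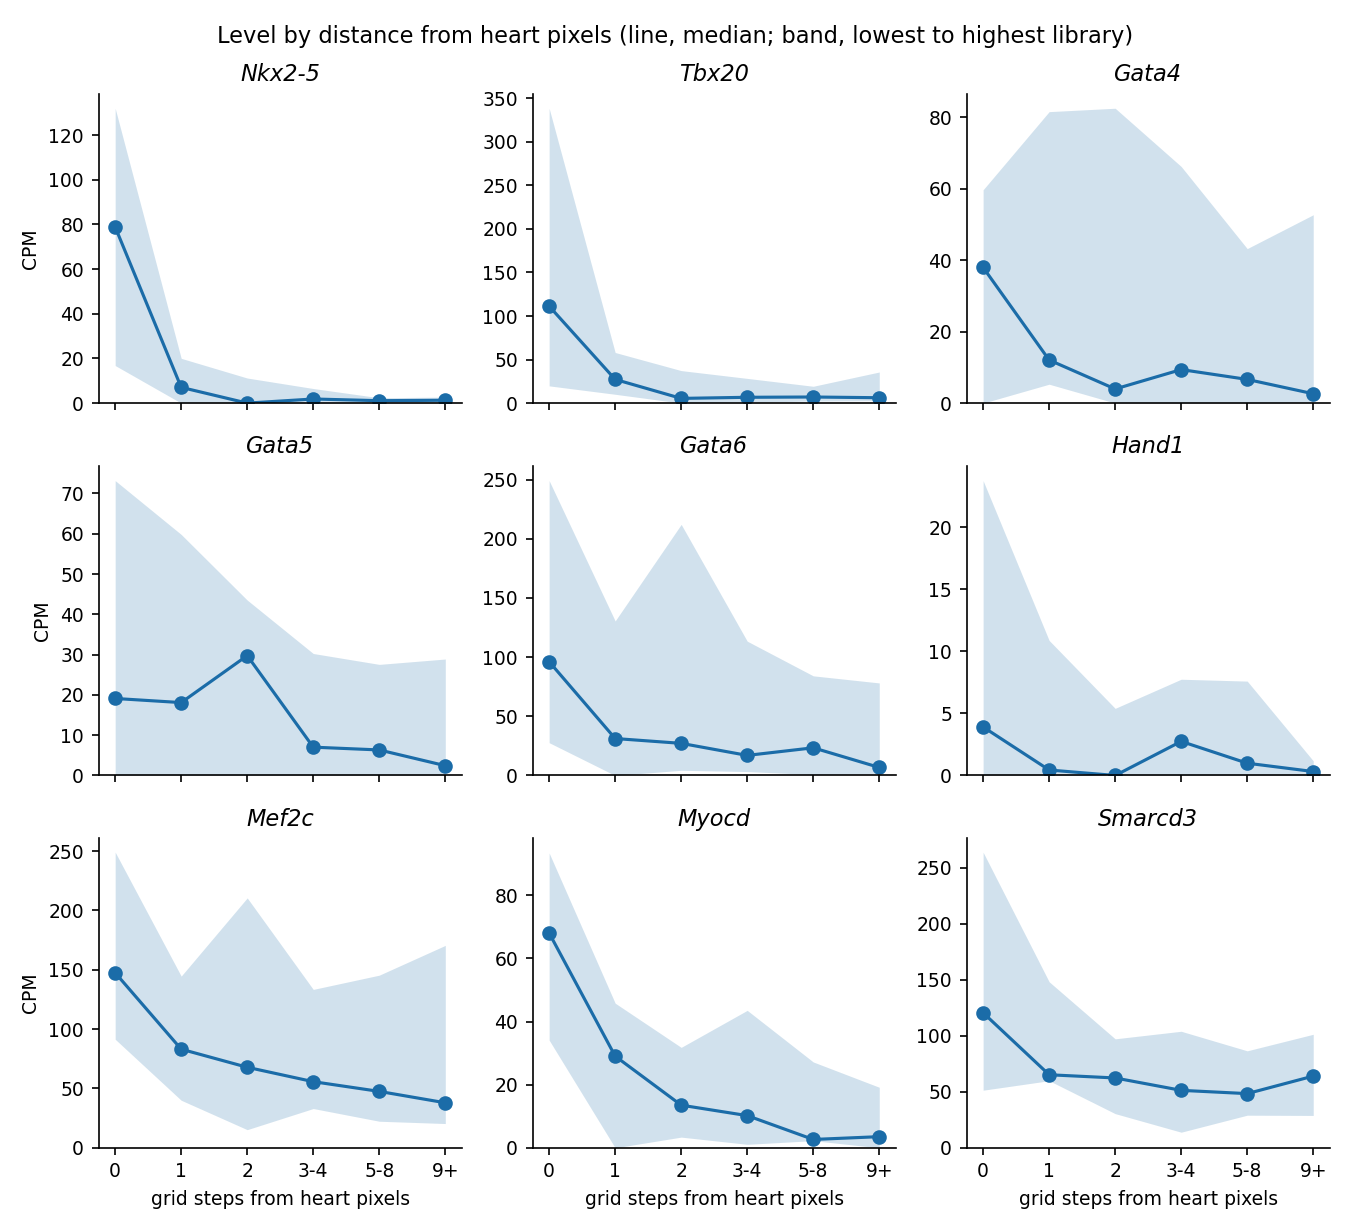
Median CPM (line) and range from the lowest to the highest library (band) of each gene by grid steps from the nearest heart pixel, where 0 is heart pixels. The medians of Nkx2-5, Tbx20 and Myocd drop within 2 steps, though not in each library, and that of Smarcd3 keeps 48.4 to 65.3 CPM outside heart pixels. Gata5 has its highest median, 29.8 CPM, at 2 steps, where the E10 libraries had 0 to 1.25 CPM.

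Outside the heart, tissue pixels of the E11 and E12 libraries with heart pixels were ranked by the marker genes of other tissues, and the 10% richest in each list were pooled per library. Nkx2-5 stayed at medians of 0 to 2.89 CPM in the 12 kinds of pixels, against 89.2 CPM (74.6 to 132, n = 4) in heart pixels. Myocd had medians of 1.31 to 14.1 CPM, the highest in mesenchyme-rich pixels (3.16 to 28.4 CPM), against 77.3 CPM in heart pixels. Tbx20 reached 17.0 CPM in endothelium-rich pixels (0 to 43.7), 15.6 CPM in liver-rich pixels (10.1 to 19.8) and 15.5 CPM in red-cell-rich pixels (0 to 22.3), values that overlapped one another, against 111 CPM (81.7 to 198) in heart pixels.

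Gata6 was not set apart by heart muscle at these stages. Its median was 102 CPM in pixels rich in epicardial and coelomic lining markers (35.8 to 129, n = 3) and 96.2 CPM in heart pixels (44.0 to 123, n = 4). It was 66.3 CPM in pixels rich in the endocardial markers (45.9 to 203) and 53.5 CPM in liver-rich pixels (30.5 to 90.1). These ranges overlapped. The pixels rich in endocardial markers lay outside heart pixels and were not shown to be endocardium. Of their markers, Cdh11 was not called in the heart pixel test (log2 fold change 0.05). In neuron-rich and neural progenitor-rich pixels Gata6 was 7.46 and 7.17 CPM. Gata4 had a median of 48.4 CPM in heart pixels (28.6 to 59.7), 35.9 CPM in epicardium- and coelom-rich pixels (13.9 to 129) and 21.8 CPM in liver-rich pixels (16.3 to 25.9). It was 7.71 CPM in the pixels outside the heart rich in endocardial markers (4.52 to 102), and 1.49 and 2.63 CPM in neuron-rich and neural progenitor-rich pixels. Gata5 had overlapping ranges in several kinds of pixels, with 20.9 CPM in heart pixels (19.1 to 25.1), 16.9 CPM in epithelium-rich pixels (5.25 to 40.4) and 16.2 CPM in limb- and lateral-plate-rich pixels (5.64 to 20.5), and was lowest in neural progenitor-rich pixels at 1.37 CPM (0.896 to 2.63).

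Mef2c was highest in pixels rich in skeletal muscle and somite markers, with a median of 164 CPM (99.2 to 354, n = 3), beside 153 CPM in heart pixels (136 to 192, n = 4) and 113 CPM in endothelium-rich pixels (96.1 to 150). These 3 kinds did not differ beyond their ranges. Smarcd3 had 152 CPM in heart pixels (83.0 to 264) and 77.6 CPM in neural progenitor-rich pixels (52.9 to 84.8), and was lowest in liver-rich pixels, at 20.6 CPM (11.2 to 56.1). Hand1 had medians of 0 to 4.76 CPM outside heart pixels, on at most 7 counts in any kind of pixel.

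**Figure D4:**
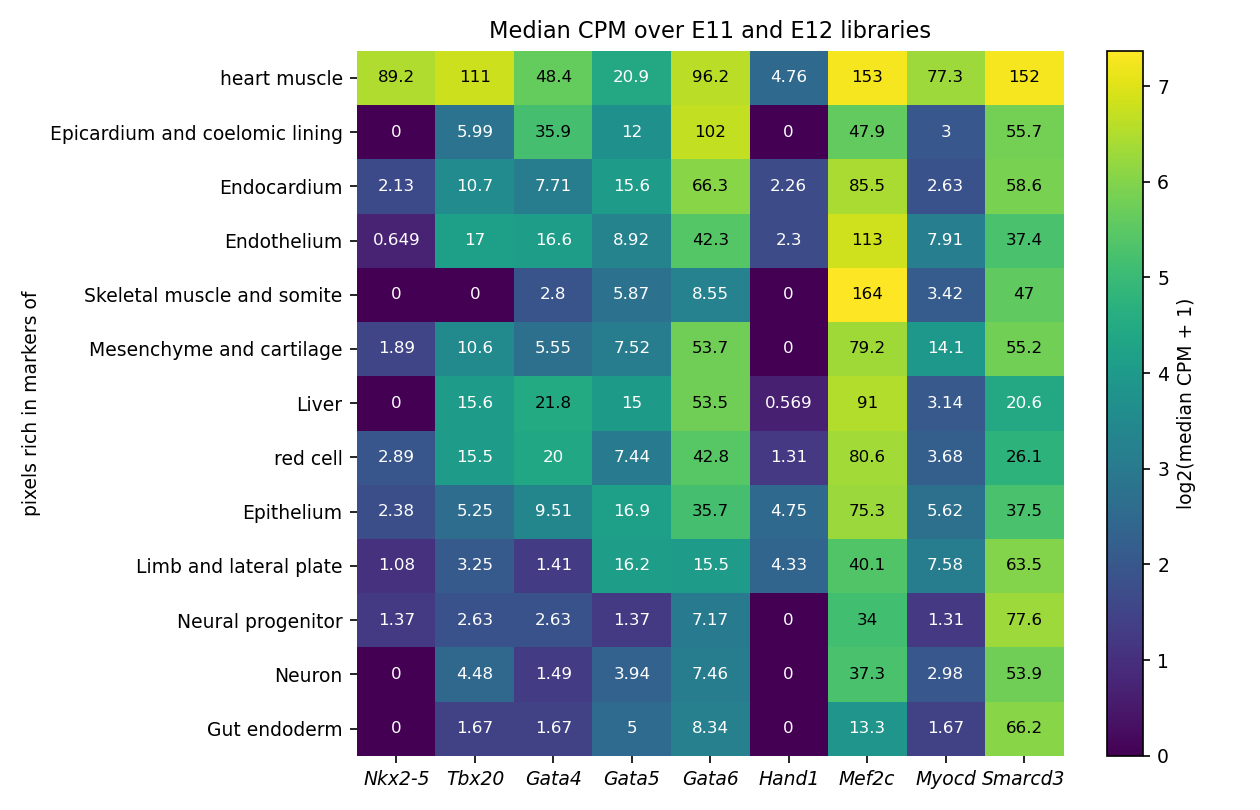
Median CPM (numbers; colour, log2(median CPM + 1)) over the 2 to 4 E11 and E12 libraries with heart pixels, for heart pixels (top) and the 10% of other tissue pixels richest in each marker list. Nkx2-5, Tbx20 and Myocd stand out in the top line, whereas Gata6 reaches 102 CPM in epicardium- and coelom-rich pixels and Mef2c 164 CPM in skeletal-muscle-rich pixels.

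Within the heart, pixels were divided by chamber genes, namely myosin light chain genes and Sln. Among heart pixels with at least 3 counts of Myl2, Myl3, Sln and Myl4, those in which Myl2 and Myl3 held at least 0.5 of these counts were called ventricular-gene-led, and the others atrial-gene-led. The comparison used 4 libraries (both E11 25 µm libraries, E11 10 µm replicate 2 and E10 10 µm replicate 1) with 62 to 251 and 23 to 165 pixels. None of the 5 factors with enough counts was called by edgeR's quasi-likelihood test, none passed at an unadjusted p under 0.05 and none was called by DESeq2. Of 3216 genes, 0.28% were called in either direction, among them Myl3 and Myl4, which divided the pixels. The log2 fold changes of ventricular- over atrial-gene-led pixels were -0.11 for Nkx2-5 (95% interval -0.84 to 0.62), -0.38 for Tbx20 (-1.13 to 0.37), -0.15 for Mef2c (-0.73 to 0.42), -0.02 for Myocd (-0.81 to 0.77) and -0.05 for Smarcd3 (-0.57 to 0.47). Differences up to these bounds were not detectable at this depth, and the signs changed between settings for Nkx2-5, Mef2c, Myocd and Smarcd3. The other 4 factors had too few counts for the test. Hand1, known from the left ventricle, had 2, 4 and 1 counts in the ventricular-gene-led pixels of the 3 E11 libraries and 0 in their atrial-gene-led pixels. In the E10 library it had 3 and 1 counts over 251 and 23 pixels. These were 1.66 CPM in ventricular-gene-led and 10.3 CPM in atrial-gene-led pixels, the opposite direction.

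Over whole sections, Nkx2-5, Tbx20 and Hand1 had 0 or 1 count in the 2 sections with 0 or 1 heart pixel. In the E10 10 µm replicate 2 section, with 0 heart pixels, there were 0 counts of Nkx2-5, Gata4, Gata5, Tbx20 and Hand1 among 5299196 counts, which allows up to 0.566 CPM each. In E11 10 µm replicate 1, with 1 heart pixel, Nkx2-5 and Hand1 had 0 counts, which allows up to 1.17 CPM, and Tbx20 had 1 count (0.389 CPM). The same sections held 27.6 and 19.8 CPM of Mef2c, 62.3 and 64.6 CPM of Smarcd3, and 10.9 and 2.72 CPM of Myocd. In the other 9 sections Nkx2-5 ranged from 1.60 to 10.1 CPM and Tbx20 from 7.67 to 32.8 CPM. Hand1 ranged from 0 to 3.91 CPM there. It had 0 counts in E10 25 µm, which held 46 heart pixels, so its zeros say little about heart content.

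The sections were compared by edgeR's quasi-likelihood test over 18233 genes with 6 groups of stage and width. None of the 9 factors was called at E11 against E10 (10 and 25 µm together), where 3.6% of genes were called in either direction. An unadjusted p under 0.05 was reached by 2 of the 9 factors and by 4217 of the 18233 genes, so the 2 do not stand out. Gata5 stood at 0.64 CPM in E10 25 µm, 1.58 and 0 CPM in the E10 10 µm sections, 18.4 and 9.12 CPM in E11 25 µm, and 1.95 and 28.4 CPM in E11 10 µm. Each E11 section was thus above each E10 section of these widths, with a log2 fold change of 4.30 ± 1.25 (SE; edgeR adjusted p = 0.0881). Gata4 and Gata6 had log2 fold changes of 3.10 ± 1.49 (adjusted p = 0.267) and 2.65 ± 1.43 (0.323). Without E11 10 µm replicate 1, the section with 1 heart pixel, all 3 GATA factors were called higher (adjusted p = 0.0419, 0.00476 and 0.0341 for Gata4, Gata5 and Gata6). Without E11 10 µm replicate 2 the values fell to 0.95, 2.79 and 0.07. DESeq2 called Gata5 (adjusted p = 0.02).

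At E12 against E10 at 50 µm (1 section against 3, the lone section being assumed to vary like the others), none was called, against 2.14% of genes in either direction. Mef2c was 23.5, 48.5 and 29.2 CPM in the E10 sections and 160 CPM in E12, a log2 fold change of 2.18 ± 0.64 (SE; edgeR adjusted p = 0.135). Myocd was 3.44, 8.70 and 4.98 CPM at E10 and 25.1 CPM at E12, a log2 fold change of 2.08 ± 0.71 (adjusted p = 0.185). Both E12 values lay above all 3 E10 sections. How many of all genes separate these sections likewise was not counted, so this is a description of 1 section. Both factors passed without E11 10 µm replicate 1 or 2, and DESeq2 called Mef2c alone. Those E11 sections are not part of this comparison and enter it through the spread that the 6 groups share. Their removal therefore does not bear on the E12 rise itself.

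Pixel width was not tied to any factor by the test. None was called between 10 and 50 µm at E10, where 0.11% of genes were called, with 0 factors called by DESeq2. There 1 factor had an unadjusted p under 0.05, as did 1978 of the 18233 genes. None was called between 10 and 25 µm at E11 either, where 2.07% of genes were called. There DESeq2 also called 0 factors, and 0 were under 0.05 without adjustment, beside 2094 of all genes. At 10 µm, the 2 sections of each stage differed in how many heart pixels they held (315 and 0 at E10, 285 and 1 at E11), and section position and width cannot be told apart.

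**Figure D5:**
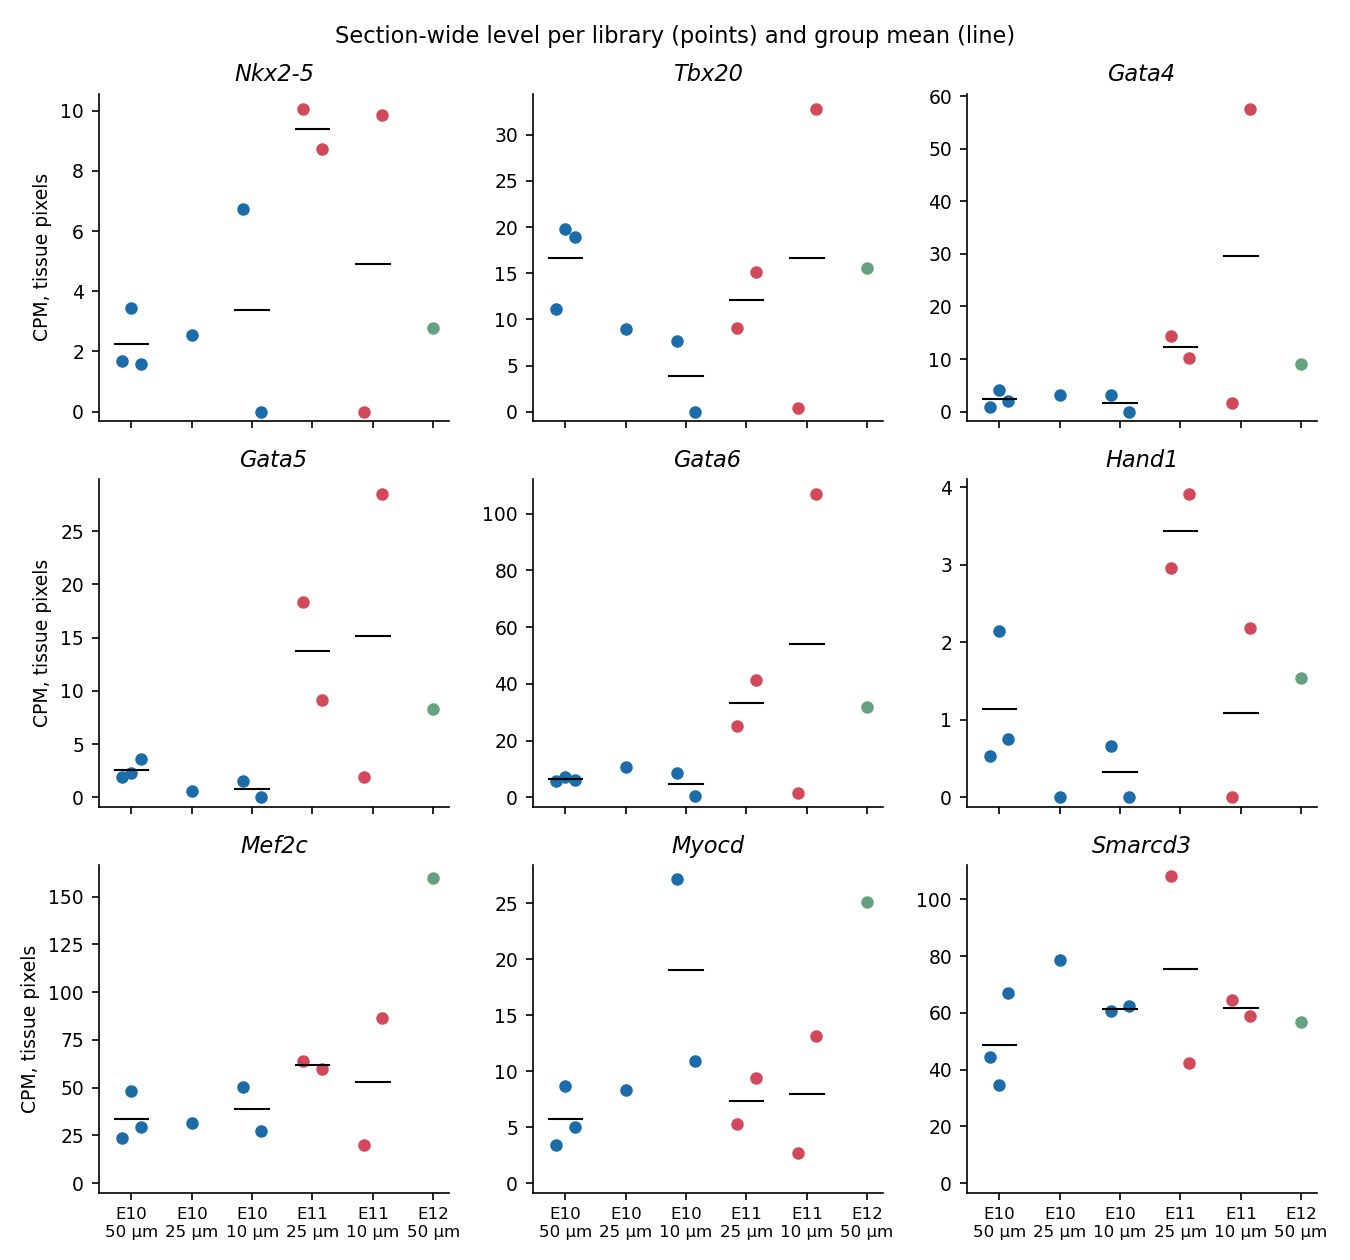
CPM over all tissue pixels of each of the 11 sections (points) by stage and pixel width, with the mean of groups of 2 or 3 as a line; the scale differs between genes. Nkx2-5 and Tbx20 are at or near 0 in the E10 10 µm and E11 10 µm sections with 0 or 1 heart pixel, and Mef2c is highest, at 160 CPM, in E12.

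Relatives and partners of the factors were read from the same heart pixel test, in which 7.68% of all genes tested were higher and 5.11% lower. Of 13 listed paralogs 9 were tested, and Hand2 (log2 fold change 1.57 ± 0.38 SE), the right ventricular counterpart of Hand1, and Mef2a (1.10 ± 0.17) were higher, while Smarcd1 (-0.93 ± 0.18), the BAF60A alternative to Smarcd3, was lower. Of 16 BAF complex subunits tested, Dpf3 (1.40 ± 0.32), a heart- and muscle-linked subunit, was higher, and Smarcd1, Smarcc1 (-0.41 ± 0.10) and Arid1a (-0.37 ± 0.12) were lower (edgeR adjusted p = 0.00212, 0.00182, 0.00365 and 0.0367 in that order). The list's median log2 fold change was -0.24, against -0.08 over all genes. Thus 1 of the 16 subunits was called higher and 3 lower, beside 7.68% and 5.11% of all genes tested, a split that changed with scaling. Smarcd3 is a listed factor and not counted among the 16.

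Of 21 other cardiac regulators 19 were tested, and 7 were higher and 1 lower, beside 7.68% and 5.11% of all genes tested. The largest were Hopx (3.67 ± 0.34 SE), a homeodomain-only cofactor, Tbx5 (3.19 ± 0.26), the T-box factor of the left heart and forelimb, Hey2 (1.74 ± 0.37), a Notch target of the compact ventricular wall, and Tcf21 (1.67 ± 0.48), an epicardial factor. The venous and atrial factor Nr2f2 was lower (-0.50 ± 0.12). Of the genes these factors are known to switch on, 20 of 22 were tested and all 20 were higher, led by Myl3 (5.68 ± 0.67), Ttn (5.61 ± 0.65), Ryr2 (5.43 ± 0.60) and Nppa (5.26 ± 0.73), with a list median of 4.95. Many of them are genes of the same muscle as the 3 that chose the pixels. Of 4 smooth muscle genes tested, which early heart muscle also uses, Cnn1 (3.40 ± 0.28), Acta2 (3.17 ± 0.42) and Tagln (2.00 ± 0.39) were higher.

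The genes whose levels were most like each factor were found over 508 blocks of 5 by 5 pixels from the 8 libraries, centred within each library, by Pearson's r of log2(CPM + 1) over 10260 genes. The blocks of a library share its depth and its section, so r is a description. Nkx2-5 was most like Tnnt2 (r = 0.58), Myl7 and Cox6a2, Tbx20 most like Actc1 (0.46), Myl7 and Ryr2, and Myocd most like Ttn (0.43), Tnnt2 and Myl7, all of them genes of the muscle cell. Gata6 was first for Gata4 (0.48), followed by Mical2 and Dsp, and first for Gata5 (0.40), followed by Dsg2 and Fn1. Gata6 itself was most like Gata4, then Cnn1 (0.42) and Gata5, while Gata4 and Gata5 (0.34) were not among each other's 3 most like genes. Mef2c was most like Tpm1 (0.34), Emilin1 and Stab1. Hand1 (Itga1, 0.26) and Smarcd3 (Vegfb, 0.27) had no close match. Among the factors themselves, r was highest between Gata4 and Gata6 (0.48), Gata5 and Gata6 (0.40) and Nkx2-5 and Myocd (0.40), and lowest between Smarcd3 and Mef2c (0.05).

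In the GENCODE M21 annotation (GRCm38), used here only to place the genes, 3 of the 9 overlap other genes. Gata5 (chromosome 2, 180325133 to 180334699, minus strand) shares 1843 bases with its antisense gene Gata5os, and Gata6 shares 504 bases with 1010001N08Rik, which had 8 counts in all. Smarcd3 (chromosome 5, 24590818 to 24624411, minus strand) shares 3739 bases with the plus-strand gene Chpf2, which had 7.67 to 25.9 CPM over the 11 sections against 34.7 to 108 CPM for Smarcd3, and also overlaps Mir671. Whether the counting used strand is not given in the sources used here, so reads of the shared bases cannot be told apart for these genes. Nkx2-5 (chromosome 17, 26838664 to 26845009), Tbx20 (chromosome 9, 24718138 to 24774303), Gata4 (chromosome 14, 63198922 to 63271692), Hand1 (chromosome 11, 57828705 to 57832818) and Myocd (chromosome 11, 65176561 to 65269989), all on the minus strand, and Mef2c (chromosome 13, 83504034 to 83667080, plus strand) overlap no other annotated gene.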

How the data were processed

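Transcripts were measured in 11 sections of mouse embryos. The authors deposited raw counts by pixel and gene symbol, 1 table a library, not normalized. Per the labels' protocols, cDNA was prepared for sequencing with Nextera XT reagents and read in pairs on a HiSeq instrument. The submitters' processing notes name CASAVA 1.8.2 and the build GRCh38, a human build. The aligner, annotation, use of strand and collapsing of duplicates are not given in the sources used here, so counts may not be single molecules. A gene with no column in a library was taken as 0. The 4 antibody libraries were not used.

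Counts were summed per library over heart pixels, other tissue pixels or the whole section, and tested with edgeR 4.0.16 (R 4.3.3; filterByExpr, TMM factors, quasi-likelihood test, Benjamini-Hochberg adjustment over all genes tested, threshold 0.05). DESeq2 1.42.0 was an alternative. Sections are the replicates, and they are not said to come from separate embryos. The p-values measure the spread between sections, but edgeR estimates that spread with information shared over all genes. The stage interaction fit had 7 libraries and 5 residual degrees of freedom, so its smallest p-values rest largely on the shared estimate. In counts drawn from the real means with 200 genes changed 4-fold, the heart pixel test recovered 93.5% of them among 11493 genes. It also called 7 unchanged genes. This share is taken over the changed genes and is not a rate for single factors. In the real data Gata6, at 5.4-fold (SE of the log2 fold change 0.667), and Gata5, at 3.78-fold (0.628), were not called. Replicate libraries differed beyond counting noise.

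The members and gene lists were chosen with earlier results of these data known. The genes named are the 9 factors, the 3 genes most like each, and up to 4 of the called genes of each list with the largest change. The promoter motifs were chosen after seeing the data. Tests were also run with other scaling, filters, heart and tissue thresholds, and without each library.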

Additional observations from a re-analysis of the deposited data

Results flagged for a closer look

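In 7 of 18 sets of 8 values (9 genes, heart pixels and other tissue), the highest library lay far from the rest by Dixon's test at the 95% level. Independent sets of normally spread values would give this in about 1 of 20. These sets share the same 8 libraries and hold CPM without logarithm at unequal depth, so that rate does not apply here. E11 10 µm replicate 2 was the flagged library for other tissue in 3 sets, with 57.5 CPM of Gata4 (the others 0.96 to 11.4), 105 CPM of Gata6 (3.17 to 37.0) and 24.2 CPM of Tbx20 (4.21 to 12.2). Nkx2-5 in other tissue was 4.71 CPM in E10 10 µm replicate 1 (the others 0.288 to 2.38), and Mef2c in other tissue was 160 CPM in E12 (26.8 to 80.1). In heart pixels, Gata5 was 73.2 CPM in E10 50 µm replicate 3 (0 to 25.1) and Hand1 was 23.8 CPM in E10 50 µm replicate 2 (0 to 7.62). The stages differed in heart enrichment by the interaction test for 5 factors, with log2 differences of E11 minus E10 of -2.48 for Gata4, -3.12 for Gata5, -3.05 for Gata6, 2.26 for Myocd and 1.35 for Smarcd3.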

How the results depend on the processing

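Nkx2-5, Tbx20, Mef2c, Myocd and Smarcd3 kept their higher call in heart pixels under all 20 alternatives, and 5 to 9 factors were called (5 to 8 with 1 library left out, 9 with DESeq2, 5 without the library block). With libraries of at least 10 heart pixels, an alternative chosen after seeing the data, 7 were called. Gata4 lost its call without the filter on low counts (adjusted p = 0.0639) and without the block (0.345). The median log2 fold change of all genes was 0.54 with DESeq2 and -0.31 with no filter, against -0.08. Genes called numbered 1470, against 2282 with no filter, 375 without the block and 971 to 1682 with 1 library left out. For the stage interaction, 3 factors were called by DESeq2 and 2 to 5 with 1 library left out, and 242 genes became 114 with DESeq2 and 93 to 248. The Tbx20 difference became 0.10 with DESeq2 and ran from -1.07 to 0.43 with 1 library left out, and that of Mef2c from -0.57 to 0.14. In the chamber comparison, the values became 0.032 for Nkx2-5, 0.12 for Myocd and 0.080 for Smarcd3 with no filter, 0.015 for Myocd with DESeq2, and 0.19 for Nkx2-5 and 0.004 for Mef2c when split at the median. With 1 library left out they ran from -0.29 to 0.053 for Nkx2-5, -0.299 to 0.089 for Mef2c and -0.175 to 0.072 for Myocd. Its 9 genes became 26 with no filter, 2 at the median split and 1 to 53. Over whole sections, E11 against E10 had 1 factor called with no filter, 1 with DESeq2 and 0 to 3 with 1 library left out, and 656 genes became 1988, 1392 and 144 to 1465. E12 against E10 had 2, 1 and 0 to 2, with 390 genes becoming 1328 with no filter and 98 to 969. E10 widths had 1 with no filter (20 genes became 731, 407 with DESeq2 and 0 to 164), and E11 widths 378 genes, 870 with no filter and 33 to 463. With the replicate block for the E11 widths, 0 factors and 297 genes were called; same-numbered sections correlated at r = 0.14 over 2 pairs, which was not taken as pairing. The cause of these changes was not tested. Depth limits the values of Hand1, the zeros of E10 25 µm and the chamber comparison.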
